A study of Rattus norvegicus with 10 samples.

Results

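The transcripts of 5 islet peptide hormone genes were followed in rat pancreatic islets: insulin 1 (Ins1), insulin 2 (Ins2), amylin (Iapp), glucagon (Gcg) and pancreatic polypeptide (Ppy). They were chosen by gene symbol, and they are 5 of the 12762 genes with a symbol on the array. Each was measured by 1 probe, among 15807 probes that carry a symbol. Islets of male Sprague-Dawley rats had received an adenovirus with a CMV promoter in front of hamster Nkx6.1 (Nkx6.1, 5 samples) or in front of bacterial β-galactosidase (bGAL, 5 samples), the control. Every sample, control included, was a pool of about 200 islets that stayed with its virus for 18 h and then without it for 60 h, at 8 mM glucose. All samples shared a virus dose of 5e9 particles per ml, 10% serum and a rat weight of about 250 g. The 5 samples of a group came from independent isolations. Whole islets were profiled, with all their cell types and whichever cells the virus had reached. Each array compared Cy5-labelled islet RNA with the same Cy3-labelled rat RNA standard.

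Rats, like mice, carry a pair of insulin genes, and β cells make insulin from both and release amylin from the same granules. Glucagon comes from α cells and pancreatic polypeptide from PP cells of the same islets, and the 2 peptides are used as markers of those cells. Each peptide is made as a preprohormone that enters the endoplasmic reticulum (ER), is cut by prohormone convertases and is stored in dense-core granules. Nkx6.1 is a homeodomain transcription factor known from β cells, where it helps to keep the β-cell program in place, and the study's title names β-cell proliferation with function retained.

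The promoters of the 5 genes are shown because the virus supplies a transcription factor and because the insulin transcripts varied together across samples (below). They are the 250 bases before the annotated start in RefSeq (GRCr8), 5′ to 3′, and all 5 genes matched by symbol. Capitals mark TAAT, the core that many homeodomain proteins bind, and CATCTG, an E-box bound by helix-loop-helix factors, on either strand, where the capitals of overlapping matches run together. Ins1 lies at chr1:261185869-261186118 (plus strand), Ins2 at chr1:207273806-207274055 (minus strand), Iapp at chr4:176967847-176968096 (plus strand), Gcg at chr3:67531534-67531783 (minus strand) and Ppy at chr10:87556237-87556486 (minus strand).
Ins1: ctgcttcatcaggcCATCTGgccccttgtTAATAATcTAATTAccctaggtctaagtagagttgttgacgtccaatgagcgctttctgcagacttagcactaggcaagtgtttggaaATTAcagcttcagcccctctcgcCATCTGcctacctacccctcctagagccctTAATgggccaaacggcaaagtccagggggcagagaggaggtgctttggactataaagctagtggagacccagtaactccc
Ins2: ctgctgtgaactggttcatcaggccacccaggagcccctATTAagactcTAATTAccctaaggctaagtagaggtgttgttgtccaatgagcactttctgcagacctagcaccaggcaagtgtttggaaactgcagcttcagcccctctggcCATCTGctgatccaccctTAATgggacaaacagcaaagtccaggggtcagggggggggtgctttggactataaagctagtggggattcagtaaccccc
Iapp: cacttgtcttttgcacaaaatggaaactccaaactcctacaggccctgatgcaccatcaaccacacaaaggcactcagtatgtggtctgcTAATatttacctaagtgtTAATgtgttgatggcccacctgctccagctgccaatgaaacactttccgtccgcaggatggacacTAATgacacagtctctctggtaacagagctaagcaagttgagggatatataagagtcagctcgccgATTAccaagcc
Gcg: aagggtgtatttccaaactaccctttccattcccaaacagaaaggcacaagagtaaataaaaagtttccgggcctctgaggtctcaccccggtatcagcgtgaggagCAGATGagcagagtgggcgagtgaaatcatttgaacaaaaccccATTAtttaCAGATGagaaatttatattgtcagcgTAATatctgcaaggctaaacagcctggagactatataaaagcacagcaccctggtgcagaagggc
Ppy: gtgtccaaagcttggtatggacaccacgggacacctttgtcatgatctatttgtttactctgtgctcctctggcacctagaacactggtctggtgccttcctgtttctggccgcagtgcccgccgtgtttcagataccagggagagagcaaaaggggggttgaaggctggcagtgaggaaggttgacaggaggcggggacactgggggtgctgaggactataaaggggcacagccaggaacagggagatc
The Ins1 window held 6 matches of TAAT, and the windows of Ins2 and Iapp held 4 each. The Gcg window held 2 and the Ppy window 0. At least 1 match was present in 57.0% of all 33469 promoter windows of this length, and 3 or more in 18.7%. CATCTG was found 2 times in Ins1, 1 time in Ins2 and 2 times in Gcg, and was in 14.0% of all windows. The promoters of Ins1 and Ins2 were identical at 209 of 263 aligned positions (79.5%), against 48.8% to 52.1% for the other 9 pairs. A match is a description of these letters and not a measured binding site.

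Values are log2 ratios to the reference, centred on each probe's median over the 10 samples. They therefore show how a gene varied among samples and not its level, so that the tissue could not be checked by abundance and no order of levels between the genes can be given. A higher value was read as more transcript in the islet RNA relative to the reference. This direction is held likely, and no source used here states it: among probes with a floor, 4 of 4 for granule and prohormone processing genes lay above it on array set 2 (below), as did 5 of 6 for acinar genes, 1 of 8 for genes of dividing cells and 3974 of all 7209. Small lists went other ways, with 0 of 1 for other peptide hormones, 0 of 2 for peptide breakdown and 1 of 3 for receptors and substrates above the floor. Leukocyte genes had 0 of 3 above it, duct genes 1 of 2, stellate genes 3 of 5 and endothelial genes 3 of 4. Transcription factors had 6 of 8 and ER entry genes 1 of 1. The basis is therefore weak. Were the ratio the other way round, every sign would turn together. The 5 hormone probes had values on all 10 arrays and no floor. The arrays fell into 2 sets by the share of probes without a value. Array set 1 (Nkx6.1 replicate 1 and bGAL replicates 1, 2, 3 and 5) lacked values for 27.3% to 32.5% of probes, and array set 2 (Nkx6.1 replicates 2 to 5 and bGAL replicate 4) for 0.816% to 9.13%. Group and array set were thus largely aligned. Nkx6.1 replicate 2 stood apart, with an interquartile range over all probes of 1.09 against 0.35 to 0.58 in the other 9 samples, so results are given with and without it.

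Insulin and amylin had higher mean values with the Nkx6.1 virus than with the control virus, and glucagon and pancreatic polypeptide had nearly equal means, but none of the 5 differences was larger than the spread between samples. Ins1 stood at −0.53, 3.14, 0.58, −0.27 and 0.83 in Nkx6.1 replicates 1 to 5, against −0.78, 0.18, −0.67, 0.19 and −0.18 in bGAL replicates 1 to 5. Nkx6.1 replicates 2, 3 and 5 lay above every bGAL sample, whereas replicates 1 and 4 lay among them. The mean was 0.75 ± 1.45 with Nkx6.1 and −0.25 ± 0.46 with bGAL (SD, n = 5 each). The log2 difference, Nkx6.1 minus bGAL, was 0.999 with a 95% interval of −0.40 to 2.40, a 2.00-fold higher mean (limma adjusted p = 0.574, and p = 0.151 by exact two-sided permutation).

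Ins2 ranked the samples much as Ins1 did (Spearman's rho 0.952 over 10 samples, as a description). Its values were −0.78, 2.60, 0.55, −0.29 and 0.74 in Nkx6.1 replicates 1 to 5, against −0.68, 0.09, −0.86, 0.02 and −0.02 in bGAL replicates 1 to 5. Again the same 3 Nkx6.1 samples stood above all bGAL samples. This gave a log2 difference of 0.85 (95% interval −0.41 to 2.12, limma adjusted p = 0.581, exact permutation p = 0.198).

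Iapp, the gene of the β-cell peptide amylin, was at −0.15, 2.88, 0.37, −0.37 and 0.51 in Nkx6.1 replicates 1 to 5, against −0.17, 0.63, −0.51, 0.15 and −0.33 in bGAL replicates 1 to 5. Here replicate 2 alone exceeded the highest bGAL sample. Its log2 difference was 0.69 (95% interval −0.58 to 1.96, limma adjusted p = 0.619, exact permutation p = 0.310).

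Gcg, the α-cell gene from which glucagon is cut, was at −0.75, 2.06, 0.12, −0.56 and 0.13 in Nkx6.1 replicates 1 to 5, against −0.44, 0.93, −0.88, −0.12 and 0.78 in bGAL replicates 1 to 5. The 2 highest bGAL samples, replicates 2 and 5, exceeded all Nkx6.1 samples but replicate 2. The log2 difference was 0.15 (95% interval −1.11 to 1.40, limma adjusted p = 0.915), and it was −0.05 with quantile normalisation, −0.18 with scale normalisation, −0.20 with array weights and −0.15 with a term for the array set.

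Ppy, the gene of the PP-cell hormone, was at −0.09, 1.82, 0.09, −0.58 and −0.67 in Nkx6.1 replicates 1 to 5, against −0.12, 0.46, −0.18, 0.37 and 0.15 in bGAL replicates 1 to 5. Nkx6.1 replicates 4 and 5 were below every bGAL sample and replicate 2 was above them. Its log2 difference was −0.02 (95% interval −1.01 to 0.96, limma adjusted p = 0.984). In these bulk samples fewer cells of a type and less RNA per cell cannot be told apart, for this and the other hormones. Ins1 and Ins2 transcripts are alike in sequence, and how far each probe also detects the other transcript was not tested.

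**Figure D1:**
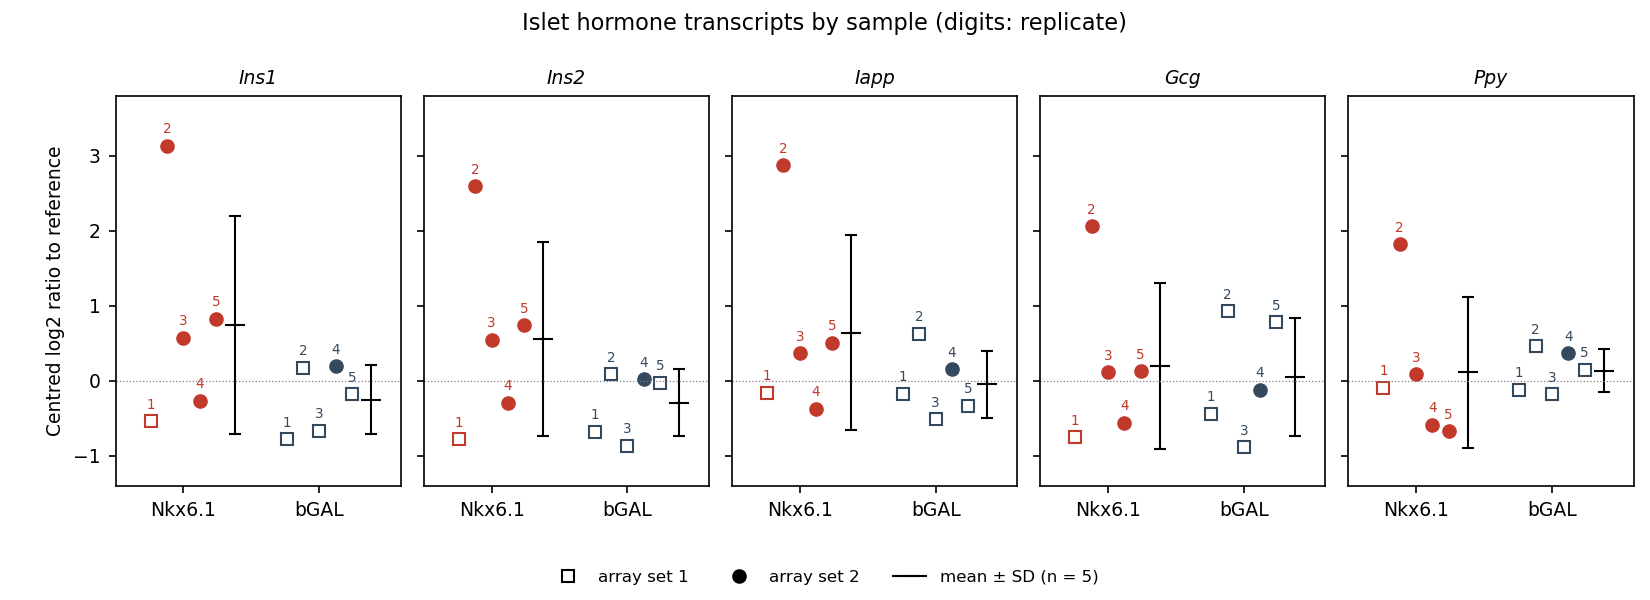
Centred log2 ratio to the reference (vertical axis) of the 5 hormone transcripts in the Nkx6.1 samples (red) and the bGAL samples (dark grey), with the replicate number above each point, open squares for array set 1, filled circles for array set 2 and the mean ± SD beside each group (n = 5). Nkx6.1 replicate 2 is the highest of the 10 samples for all 5 genes, at 3.14 for Ins1 and 1.82 for Ppy.

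Over all genes, limma called 15 of 9974 (0.15%) at an adjusted p of 0.05, and 0 of the 5 hormone genes were among them. All 5 hormone genes had overlapping groups, where 3.93% of all genes had groups that did not overlap. The members' median log2 difference was 0.69, and that of all genes tested was −0.05. At an unadjusted p under 0.05 limma had 962 genes, and the lowest unadjusted p of the 5 hormone genes was 0.143, that of Ins1.

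Leaving out Nkx6.1 replicate 2 lowered all 5 estimates. The log2 difference became 0.40 for Ins1 (95% interval −0.39 to 1.19), 0.35 for Ins2 (−0.48 to 1.17) and 0.13 for Iapp (−0.51 to 0.77). For the hormones of the other cell types it became −0.32 for Gcg (−1.26 to 0.62) and −0.45 for Ppy (−0.95 to 0.05). Limma's adjusted p was between 0.472 and 0.862 for the 5 genes, and 36 of 9971 genes (0.361%) were called without that sample. The smallest of the 5, that of Ppy, belonged to Nkx6.1 values of −0.31 ± 0.37 (SD, n = 4) against bGAL values of 0.14 ± 0.28 (SD, n = 5), with an exact permutation p of 0.103. Within array set 1 the single Nkx6.1 sample differed from the 4 bGAL samples by −0.17 for Ins1, −0.41 for Ins2, −0.06 for Iapp, −0.85 for Gcg and −0.17 for Ppy. Within array set 2 the 4 Nkx6.1 samples differed from the single bGAL sample by 0.88, 0.87, 0.69, 0.55 and −0.20 for the same genes in the same order. For Ins1, Ins2, Iapp and Gcg the sign thus differed between the array sets. As each set holds a single sample of 1 group, the set and that sample cannot be told apart.

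**Figure D2:**
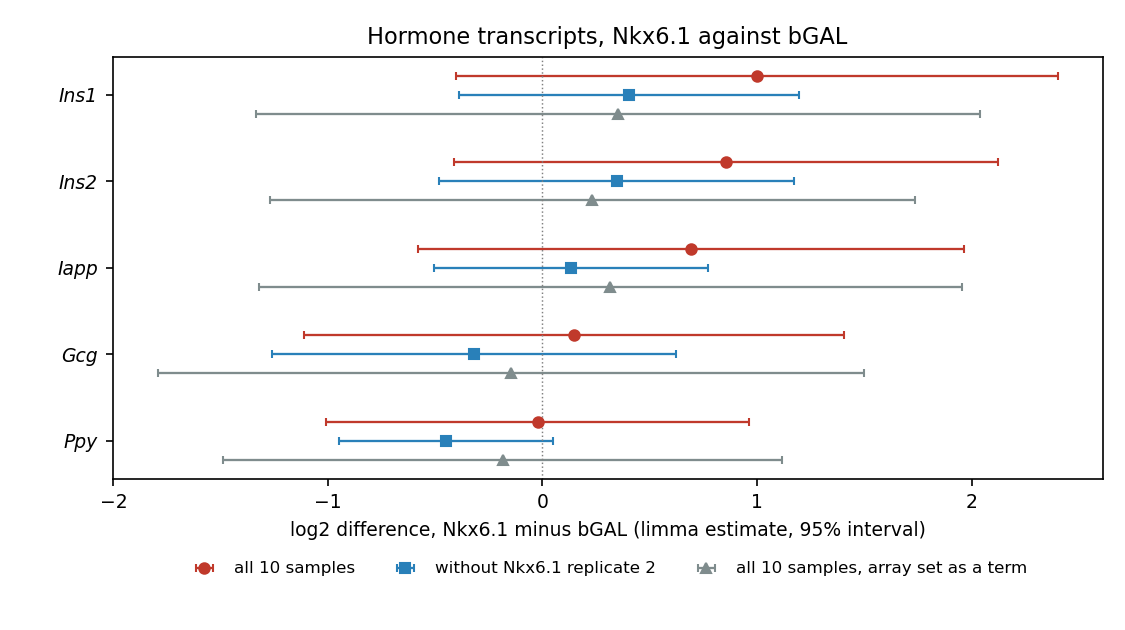
Log2 difference, Nkx6.1 minus bGAL (horizontal axis, limma estimate with its 95% interval), of each hormone gene with all 10 samples (red circles), without Nkx6.1 replicate 2 (blue squares) and with the array set as a term in the fit (grey triangles). All 15 intervals include 0, and the estimate for Ins1 moves to 0.40 from 0.999 when Nkx6.1 replicate 2 is left out.

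Nkx6.1 replicate 2 was the highest of the 10 samples for 5 of 5 hormone genes, against 25.6% of the 9617 genes with 10 values, and the lowest for 0 of 5, against 29.0% of those genes. Among those genes within that array, Ins1 stood at the 98.1st percentile, Iapp at 97.7, Ins2 at 97.0, Gcg at 94.96 and Ppy at 93.4. In units of the array's own interquartile range, Ins1 of replicate 2 was 2.89 above 0, and Ins1 of Nkx6.1 replicates 3 and 5 was 1.14 and 1.54 above 0. Those 2 samples also had high insulin ranks, at the 92.7th and 96.7th percentile for Ins1. Nkx6.1 replicates 1 and 4 were low, at the 11.3rd and 23.7th percentile. The bGAL samples lay between the 8.23rd and 72.0th percentile. Ppy did not share this order: in Nkx6.1 replicate 5 it was at the 8.86th percentile, where Ins1 was at the 96.7th.

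A ratio between 2 transcripts of 1 sample removes whatever the array adds equally to both, and shows whether the hormones shifted against each other. The ratio is the difference of the 2 centred log2 values, so 0 is near its middle over the samples and not an equal level. The 6 ratios of insulin or amylin to glucagon or pancreatic polypeptide had means 1.46-fold to 2.03-fold higher with Nkx6.1 than with bGAL. Of the 10 pairs, 0 passed after adjustment over the pairs, and 5 had an unadjusted exact permutation p under 0.05. The 10 pairs are built from 5 genes in the same samples, and Ins1, Ins2 and Iapp varied together (below). The pairs are therefore not independent, and the 5 do not count as separate support.

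The ratio of Ins1 to Gcg, a β-cell over an α-cell hormone transcript, was 0.22, 1.08, 0.46, 0.29 and 0.70 in Nkx6.1 replicates 1 to 5, against −0.34, −0.75, 0.22, 0.31 and −0.96 in bGAL replicates 1 to 5. Every Nkx6.1 sample was above 0 and bGAL replicates 1, 2 and 5 were below it, while bGAL replicate 4 lay among the Nkx6.1 samples and bGAL replicate 3 was level with the lowest of them. The mean was 0.55 ± 0.35 with Nkx6.1 and −0.31 ± 0.57 with bGAL (SD, n = 5 each). The log2 difference was 0.85 ± 0.30 (SE, exact two-sided permutation p = 0.0317, adjusted p = 0.0794 over 10 pairs). It was 0.72 without Nkx6.1 replicate 2 (exact p = 0.0714, adjusted p = 0.159), and 0.68 and 0.32 within array sets 1 and 2.

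The ratio of Ins2 to Gcg gave a like picture, at −0.03, 0.54, 0.43, 0.26 and 0.61 in Nkx6.1 replicates 1 to 5, against −0.24, −0.84, 0.02, 0.14 and −0.81 in bGAL replicates 1 to 5. Nkx6.1 replicates 2 to 5 lay above all bGAL samples. The log2 difference was 0.71 ± 0.23 (SE, exact permutation p = 0.0238, adjusted p = 0.0794), 0.66 without Nkx6.1 replicate 2, and 0.44 and 0.32 within array sets 1 and 2. For Iapp over Gcg it was 0.55 ± 0.30 (SE, exact permutation p = 0.127, adjusted p = 0.204), 0.79 within array set 1 and 0.14 within array set 2. These 3 ratios were thus higher with Nkx6.1 in both array sets, where each set holds 1 sample of one group and the smallest p an exact test can give is 0.2.

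Against pancreatic polypeptide the differences in the means were of like size but were seen mainly within array set 2. The ratio of Ins1 to Ppy was −0.44, 1.32, 0.49, 0.32 and 1.50 in Nkx6.1 replicates 1 to 5, against −0.66, −0.29, −0.49, −0.17 and −0.32 in bGAL replicates 1 to 5. The 5 bGAL samples and Nkx6.1 replicate 1 were all below 0, and the other 4 Nkx6.1 samples were above it. The log2 difference was 1.02 ± 0.36 (SE, exact permutation p = 0.0317, adjusted p = 0.0794). Within array set 1 it was −0.0035, and within array set 2 it was 1.08.

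For Ins2 over Ppy the log2 difference was 0.88 ± 0.35 (SE, exact permutation p = 0.0476, adjusted p = 0.0952), with −0.24 within array set 1 and 1.08 within array set 2. For Iapp over Ppy it was 0.71 ± 0.27 (SE, exact permutation p = 0.0238, adjusted p = 0.0794), with 0.11 and 0.89 within the sets. Nkx6.1 replicate 1, the only Nkx6.1 sample of array set 1, set the call for all 3: without it each had an adjusted p of 0.0265 (exact permutation), with differences of 1.29, 1.16 and 0.86, and the 4 remaining Nkx6.1 samples were then all from array set 2. Without Nkx6.1 replicate 2 the 3 differences were 0.85, 0.80 and 0.58, each with an adjusted p of 0.159 (exact permutation). Array set and group cannot be told apart in most of this comparison.

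**Figure D3:**
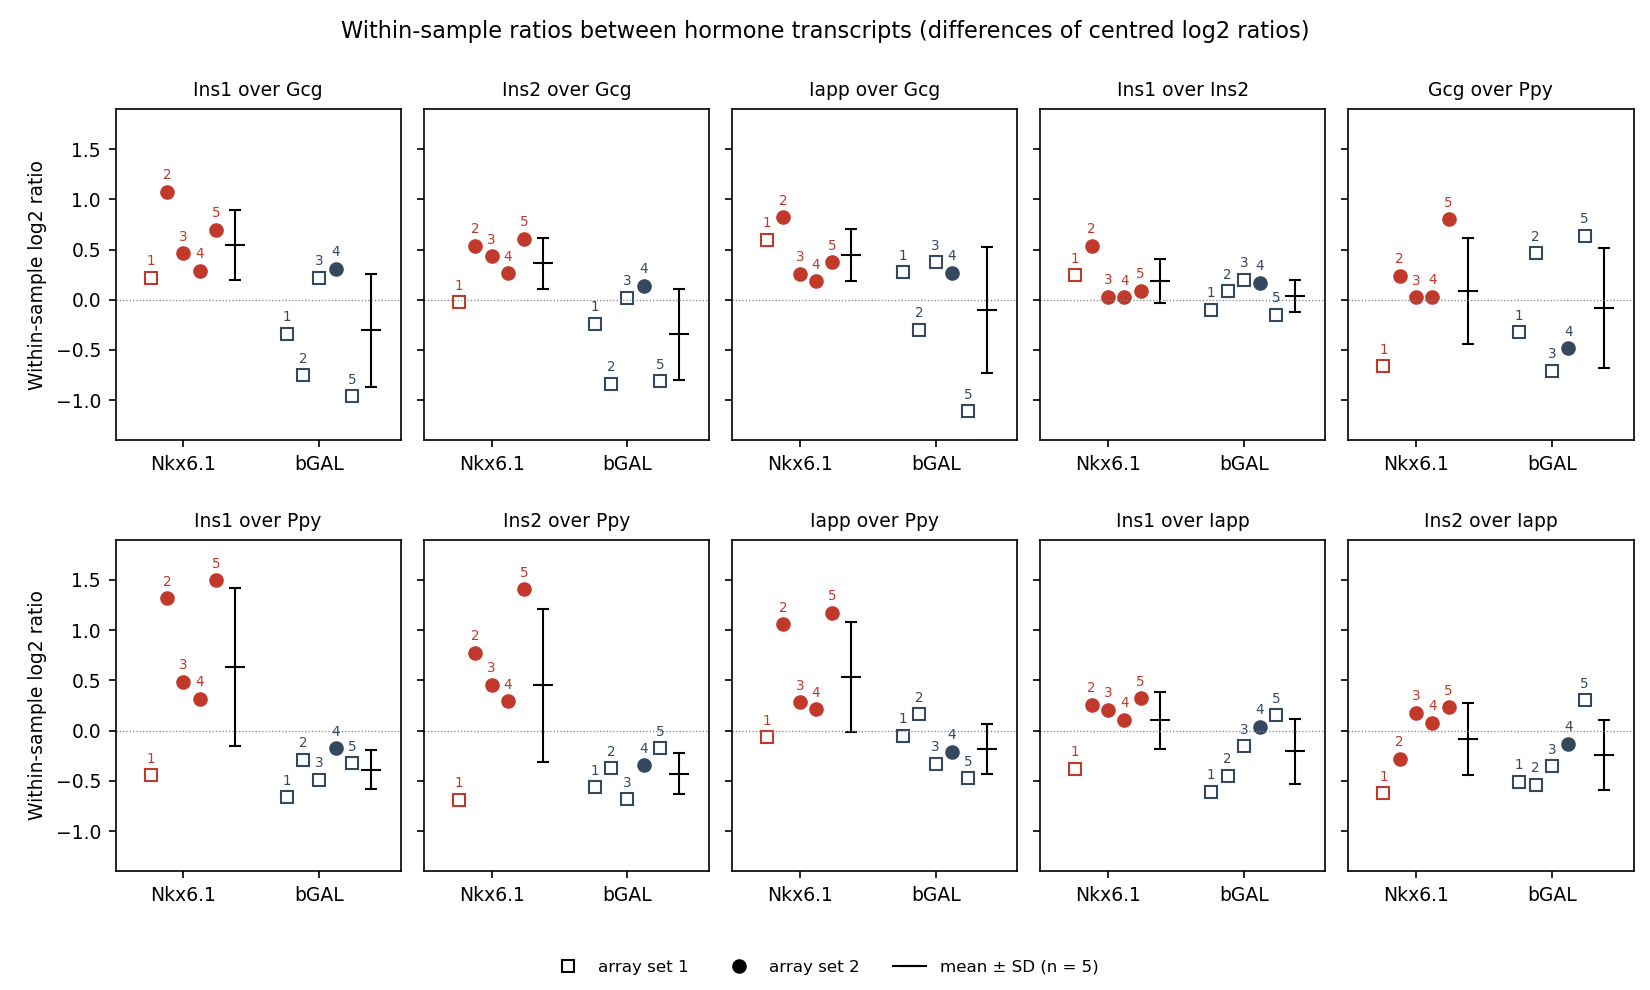
Within-sample log2 ratio (vertical axis, difference of centred log2 ratios) of each of the 10 pairs of hormone transcripts in the Nkx6.1 samples (red) and the bGAL samples (dark grey), with replicate numbers, open squares for array set 1, filled circles for array set 2 and the mean ± SD beside each group (n = 5). Ratios of insulin and amylin to Ppy are below 0.2 in the 5 bGAL samples and Nkx6.1 replicate 1 and above 0.2 in the other 4 Nkx6.1 samples.

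The 2 insulin transcripts varied little against each other. Ins1 over Ins2 ranged from 0.03 to 0.54 in the Nkx6.1 samples and from −0.15 to 0.20 in the bGAL samples, with an SD of 0.19 over the 10 samples, although Ins1 itself ranged over 3.92. The log2 difference of this ratio was 0.15 ± 0.12 (SE, exact permutation p = 0.262), and its highest value was that of Nkx6.1 replicate 2. Ins1 over Iapp differed by 0.31 ± 0.19 and Ins2 over Iapp by 0.16 ± 0.22 (SE, exact permutation p = 0.143 and 0.468). Gcg over Ppy, the ratio of the 2 hormones made outside β cells, differed by 0.17 ± 0.36 (SE, exact permutation p = 0.659), with values from −0.66 to 0.80 in the Nkx6.1 samples and from −0.70 to 0.64 in the bGAL samples.

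As a description over the 10 samples, which share the array sets and a common reference, Pearson's r was 0.990 between Ins1 and Ins2 and 0.963 between Ins1 and Iapp. It was 0.834 between Ins1 and Gcg and 0.758 between Ins1 and Ppy. Without Nkx6.1 replicate 2 these values were 0.973, 0.811, 0.560 and −0.003. The relation of Ins1 to Ppy thus rested on that 1 sample.

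The genes whose values were most like the mean of Ins1 and Ins2 were taken from 9612 other genes with 10 values. Scgn, which encodes the calcium sensor secretagogin of islet and other neuroendocrine cells, came first with r = 0.981 over 10 samples and 0.937 without Nkx6.1 replicate 2. Camk2n1, an inhibitor of a calcium- and calmodulin-dependent kinase, had r = 0.980 and 0.931. Ucp2, a mitochondrial carrier gene studied in β cells for its bearing on insulin secretion, had r = 0.970 and 0.933, and the growth factor gene Fgf1 had 0.972 and 0.918. Mapk8ip1, a scaffold of JNK signalling also known as islet-brain 1, had r = 0.973 and 0.884. These 5 genes had log2 differences between 0.33 for Fgf1 and 1.01 for Ucp2, none past the threshold. Without Nkx6.1 replicate 2 the most alike was Rad50, a DNA repair gene (0.940, and 0.857 over 10 samples). Iapp came in at place 18 over 10 samples and 100 over 9. For Gcg, the gene Gc, a vitamin D-binding protein gene and marker of α cells, came in at place 6 (r = 0.938, and 0.854 without Nkx6.1 replicate 2). Tmprss15, Or8g51, Or51v14, Vom1r70 and Taar7b stood above it (see the closing observations). Without Nkx6.1 replicate 2 the 6 most alike were Grk3, Dnase1l3, Ddx31, Dalrd3, Or6c3 and Or8g51, and Gc was not among them.

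Of the genes known to process, store or bind these hormones, 0 passed the test with all 10 samples. Of 9 measured prohormone processing genes, 0 rose and 0 fell, with a median log2 difference of 0.39 (−0.0013 without Nkx6.1 replicate 2) against −0.05 over all genes. The convertase gene Pcsk1, whose enzyme cuts proinsulin, had a log2 difference of 0.32, Cpd, a carboxypeptidase gene, 0.48 and Pcsk4 0.96. These estimates became −0.0013, 0.92 and 0.48 when Nkx6.1 replicate 2 was left out. Of 13 granule protein genes, 0 rose and 0 fell (median −0.07, and −0.28 without Nkx6.1 replicate 2). Vgf, a granule peptide precursor, had a log2 difference of 2.19 (limma adjusted p = 0.194) and was the 1 granule gene called without Nkx6.1 replicate 2 (1.696, limma adjusted p = 0.0090). In the list of 12 receptors and signalling substrates 0 rose and 0 fell (median 0.32, and 0.064 without Nkx6.1 replicate 2). Ramp2, which pairs with receptors of the calcitonin family, had a log2 difference of 0.63 (0.31 without that sample) and Irs1, a substrate of the insulin receptor, one of 0.44 (0.19 without it).

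Genes for the entry of preprohormones into the ER had 14 negative estimates of 19, where 54.5% of all genes had one, with 0 past the threshold and a median of −0.18 (0.0099 without Nkx6.1 replicate 2). Srprb, a subunit of the signal recognition particle receptor, had a log2 difference of −0.52, Spcs2, a signal peptidase subunit gene, one of −0.59 and Sec61b, a subunit gene of the ER translocon, one of 0.39. Leaving out Nkx6.1 replicate 2 gave −0.33, −0.28 and 0.53 for these genes. Of 12 transcription factor genes known from hormone gene control, 8 had negative estimates, against 54.5% of all genes, and 0 passed (median −0.18, and −0.11 without Nkx6.1 replicate 2). Pax6, a paired-homeodomain factor of islet cells, had a log2 difference of −2.97 (limma adjusted p = 0.489), and Tcf3, a helix-loop-helix factor, one of 0.76. These were −2.83 and 0.80 without Nkx6.1 replicate 2. The Pax6 difference was −3.77 within array set 1 but 0.15 within array set 2, and its bGAL values ran from −0.65 to 5.23. In this list 8 probes had a floor. The probe of the rat Nkx6-1 gene had a log2 difference of −0.56 (−0.34 without Nkx6.1 replicate 2), and whether that probe detects the hamster transcript was not tested. Of 5 genes of peptide breakdown, among them the insulin-degrading protease relative Nrdc (0.12) and neprilysin (Mme, 0.98), 0 passed (median 0.12, and −0.04 without Nkx6.1 replicate 2). Nrdc and Mme had log2 differences of −0.14 and 0.34 without that sample.

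Of the β-cell and α-cell markers besides the hormones, 0 passed the test. The 7 measured β-cell markers had a median log2 difference of −0.46, with 2 positive and 5 negative estimates, beside the positive estimates of Ins1, Ins2 and Iapp. That median was −0.24 without Nkx6.1 replicate 2, 0.17 in array set 1 and −0.21 in array set 2. The glucose transporter gene Slc2a2 had 0.65 and the granule zinc transporter gene Slc30a8 −0.35 (0.56 and −0.35 without Nkx6.1 replicate 2). The 5 α-cell markers had 3 positive and 2 negative estimates and a median of 0.24, which was −0.01 without Nkx6.1 replicate 2. Slc38a5, an amino acid transporter gene, had a log2 difference of 0.49, the convertase gene Pcsk2 one of 0.36, the membrane protein gene Tm4sf4 one of −0.81 and Gc one of −0.12. In the same order they were 0.18, −0.01, −0.30 and −0.42 without Nkx6.1 replicate 2. Among δ-cell markers 2 of 3 fell, where 0.15% of all genes were called in either direction. They were Rbp4 and Hhex (log2 differences −2.92 and −1.82, limma adjusted p = 0.013 and 0.025). Both had negative estimates under all 22 alternatives run, and each kept its call under 11 of them. Neither passed with a term for the array set (limma adjusted p = 0.060 for Rbp4 and 0.286 for Hhex), with the replicate block (0.296 for both) or within either array set, and Rbp4 did not with quantile or scale normalisation (0.064 and 0.054). Each was also lost without bGAL replicate 2 or 3 and without Nkx6.1 replicate 3, 4 or 5, and Hhex without bGAL replicate 1, with log2 differences from −2.99 to −2.83 for Rbp4 and from −1.90 to −1.71 for Hhex in those fits. Hhex was further lost without replicate 2 of both groups (−1.64, limma adjusted p = 0.0553). Somatostatin (Sst) stood at 2.12 in Nkx6.1 replicate 2 and between −1.77 and −1.20 in the other 4 Nkx6.1 samples, against −0.03 to 0.76 in the bGAL samples. It had a log2 difference of −1.09, and fell without that sample (−1.81, limma adjusted p = 0.0112).

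Markers of other cells in an islet preparation also differed between samples, and their part in the results was not tested. The 12 leukocyte markers all had negative estimates with all 10 samples, where 54.5% of all genes had one, and 0 passed the threshold. Their median log2 difference was −0.91, against −0.05 over all genes, and −1.01 without Nkx6.1 replicate 2. For array set 1 alone this median was −1.14, and for array set 2 alone −0.465, with a single sample of 1 group in each. List medians ran from −0.55 to −0.06 in the Nkx6.1 samples and from 0.03 to 0.84 in the bGAL samples. The 9 acinar markers had a median difference of 0.59 (0.35 without Nkx6.1 replicate 2) with 0 past the threshold, and list medians of −0.25 to 0.75 in the Nkx6.1 samples and −0.20 to 0.03 in the bGAL samples. Duct, endothelial and stellate markers (6, 5 and 10 genes) had median differences of 0.31, −0.11 and −0.38, with 0 past the threshold.

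**Figure D4:**
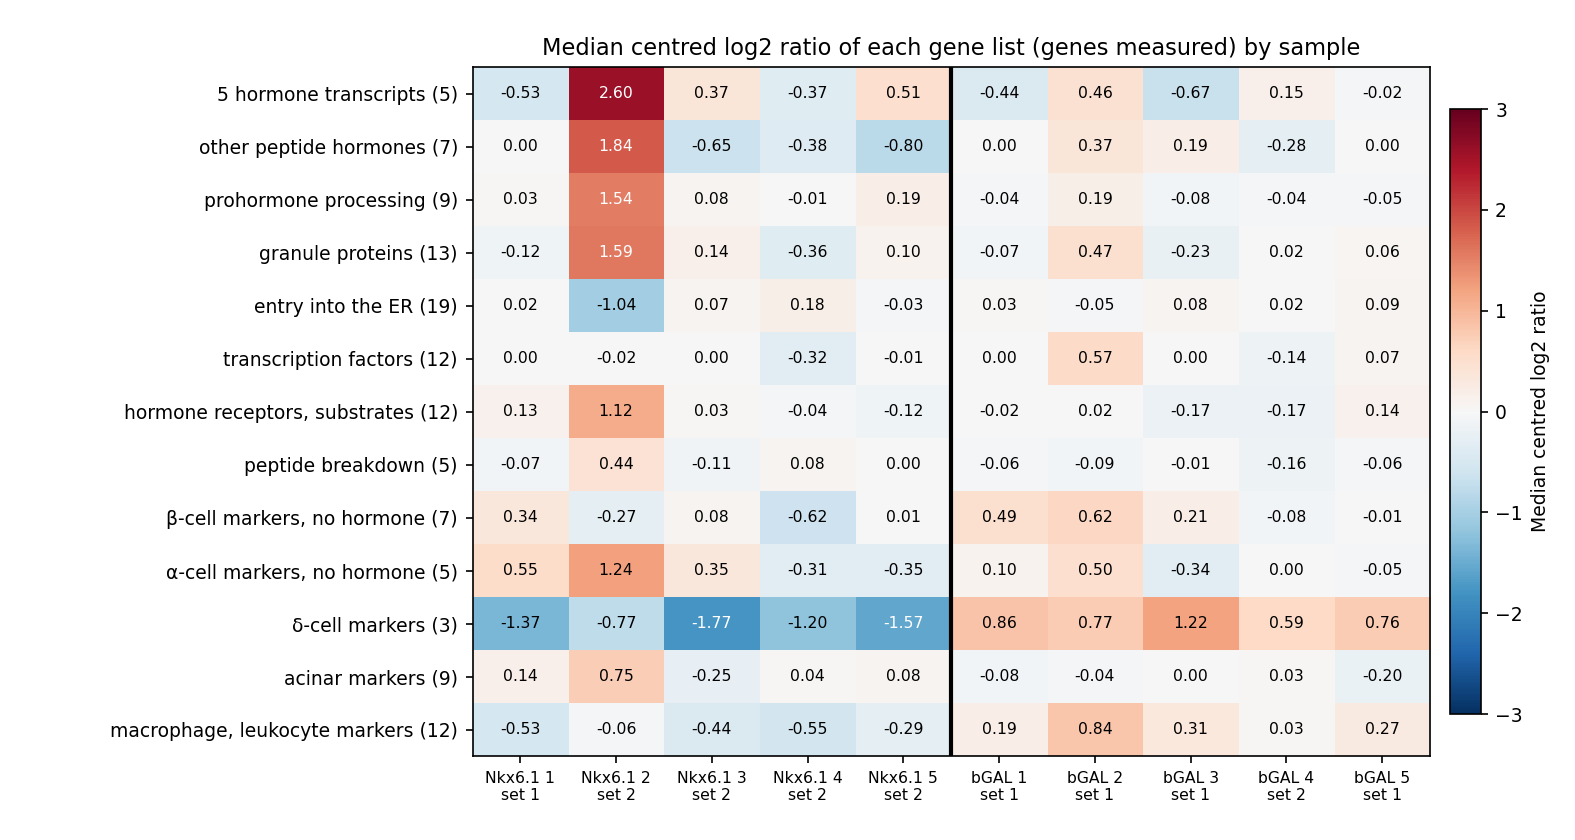
Median centred log2 ratio (colour and printed value) of the 5 hormone transcripts and 12 gene lists (rows, number of measured genes in brackets) in each Nkx6.1 sample (left) and bGAL sample (right), with the array set under each name. Nkx6.1 replicate 2 stands at 2.60 for the hormones, 1.59 for granule proteins and −1.04 for ER entry, and the δ-cell markers are below 0 in the 5 Nkx6.1 samples and above 0 in the 5 bGAL samples.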

How the data were processed

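Two-colour array values of 10 samples were used. The deposited values are log2 ratios, centred by the authors on each probe's median (all 17744 probes with 10 values had a median of 0, tolerance 0.001, from the values). Background correction, dye normalisation and filters are steps no source used here gives, and base 2 was inferred from values spaced by the base 2 logarithm of a round factor. Of 26984 probes 22 were controls. Symbols came from the platform annotation, updated through the GRCr8 RefSeq gene table (12034 current, 3713 by synonym, 60 kept), and probes of a gene were averaged. Genes with at least 3 values per group were fitted with limma 3.58.1 in R 4.3.3 (two-sided, Nkx6.1 minus bGAL, Benjamini-Hochberg over all genes, threshold 0.05). Within-sample ratios were tested by two-sided exact permutation, whose smallest p is 0.0079 for 5 against 5, adjusted over 10 pairs. The scripts were tested on simulated data. Python 3.11.15, numpy 2.4.6, pandas 2.3.3, matplotlib 3.10.9 and Biopython 1.88 were used. Array set 1 is the samples that lack a value for over 20% of probes. The number of arrays limits the precision.

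Named genes were drawn from the members, the 3 genes of each list with the smallest p, list genes past the threshold and the 6 genes most like insulin or glucagon by Pearson's r. Not every gene that this rule covers is named, and none is for the leukocyte, acinar, duct, endothelial and stellate markers. The genes of the closing observations fall outside this rule where their values in 1 sample are given, and were chosen after those were seen. The members, lists and tests were chosen with earlier results of these data known. No pairing was used. Deviations of samples with the same replicate number had Pearson's r from −0.10 to 0.18 over genes, and Spearman's rho from −0.17 to 0.38. Both measures were highest for numbers 1 and 4, whose samples lie in the same array set. Because array sets differ within the other numbers, this check cannot tell whether same-numbered samples share an isolation.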

Additional observations from a re-analysis of the deposited data

Results flagged for a closer look

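Iapp in Nkx6.1 replicate 2 stood at 2.88, far from the other 4 Nkx6.1 samples, which lay between −0.37 and 0.51. Its gap to the next sample was 0.73 of the group's range, above the 95% critical value for 5 samples. The other 4 hormone genes had gaps of 0.55 to 0.70 of the range in the same sample and did not reach that value. Chance flags about 1 in 20 groups of samples. The rule was applied to both virus groups for each of the 5 genes and each of the 10 ratios, and it flagged nothing else.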

How the results depend on the processing

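The arrays, not depth, limit these results: 10 ratios per probe, 1 probe per hormone gene, and array sets largely aligned with the groups. Within array set 1 alone the log2 difference turned to −0.17 for Ins1, −0.41 for Ins2 and −0.060 for Iapp, with 1 Nkx6.1 sample. Under the other 22 alternatives, leaving out each sample included, these 3 genes kept a positive difference that did not pass. Gcg turned to −0.053 with quantile normalisation, −0.18 with scale normalisation, −0.20 with array weights, −0.15 with the array set term, −0.85 within array set 1 and −0.10 without replicate 2 of both groups. Leaving out each sample in turn gave −0.32 to 0.38 for Gcg and −0.45 to 0.17 for Ppy. Of the ratios, within array set 1 Ins1 over Iapp turned to −0.11, Ins1 over Ppy to −0.0035, Ins2 over Iapp to −0.35, Ins2 over Ppy to −0.24 and Gcg over Ppy to −0.68, and Ins2 over Iapp was −0.083 with the array set term. Leaving out each sample gave 0.81 to 1.29 for Ins1 over Ppy, 0.64 to 1.16 for Ins2 over Ppy, 0.55 to 0.86 for Iapp over Ppy and −0.0099 to 0.355 for Gcg over Ppy, and the first 3 passed only without Nkx6.1 replicate 1. The ratios of Ins1, Ins2 and Iapp to Gcg kept their direction under all 18 alternatives and passed under none. Within either array set and with the replicate block no ratio could pass, as the smallest exact permutation p is 0.2 and 0.0625 there. The 15 genes called by limma became 27 with quantile normalisation, 23 with scale normalisation, 577 with array weights, 1039 with a robust fit, 3 with the array set term, 35 within array set 1, 32 within array set 2 and 2 to 36 when each sample was left out. The cause was not tested. Without Nkx6.1 replicate 2, a setting chosen after seeing the data for the lists, 1 other peptide hormone gene, 1 granule gene and 3 δ-cell markers were called, against 0, 0 and 2. The peptide hormone gene is Sst, which is also 1 of the 3 δ-cell markers and is thus counted in both lists. Over all genes, 36 of 9971 (0.361%) were called in that setting, against 15 of 9974 (0.15%).

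Same-numbered samples are tied in the labels by number only, and whether they share an isolation is not known. Of 5 Nkx6.1 samples, 1 was most like the bGAL sample of its own number. This was replicate 4, and bGAL replicate 4, the only bGAL sample of array set 2, was also the best match of Nkx6.1 replicates 3 and 5. A fit blocked on replicate number had 0 genes past the threshold in limma (811 at an unadjusted p under 0.05), and Ins1 kept its log2 difference of 0.999 (limma adjusted p = 0.581).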

Other observations

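In Nkx6.1 replicate 2, where all 5 hormone genes were the highest of the 10 samples, the lists around hormone production went apart. Of the 7 other measured peptide hormone genes, 6 were highest in that sample, among them neuropeptide Y (Npy, 2.78) and cholecystokinin (Cck, 2.70), although 25.6% of all genes were. Of the 19 genes for entry into the ER, 15 were lowest in it, against 29.0% of all genes. In the processing list Ero1b, an ER oxidase gene of β cells, was at −2.79 there, from −0.03 to 0.42 in the 4 remaining Nkx6.1 samples and from −0.76 to 0.49 in the bGAL samples. The granule chaperone gene Scg5 (2.94) and the convertase inhibitor gene Pcsk1n (2.77) were high, as was Ucp2 (4.07). Chgb, a chromogranin gene, stood lower at 0.79 but was also the highest of the 10 samples. Of the 13 granule genes, 7 were highest in that sample and 2 were lowest.

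Of the 6 genes most like Gcg over the 10 samples, 4 are annotated as olfactory, vomeronasal or trace amine receptor genes: Or8g51 (r = 0.960), Or51v14 (0.947), Vom1r70 (0.942) and Taar7b (0.938). The first of the 6 was Tmprss15, the gene of the intestinal protease enteropeptidase (r = 0.963). Without Nkx6.1 replicate 2, Or8g51 kept an r of 0.939 and Or6c3 reached 0.941.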
